A study of Homo sapiens with 24 samples.

Results

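AGS cells, a human gastric adenocarcinoma line, were treated with PI103 mixed with (5Z)-7-oxozeaenol, and the level of each transcript in the mixture was compared with the mean of the levels under each agent alone. The comparison uses 12 of the 24 libraries of the study, 4 each for PI103 alone (0.7 µM), oxozeaenol alone (0.5 µM) and the mixture. All cells were wild type by the labels and were harvested after 24 h, and each agent was present in the mixture at 50% of the concentration used alone. The other libraries are 4 untreated controls, 4 with the inhibitor PD0325901 (0.035 µM) and 4 with PI103 and PD0325901 together, again at 50% each. Treatments were taken from the sample titles, since the treatment tags of some replicates carry other compound numbers. The labels call the 4 replicates of a treatment biological and give each number a batch of its own, shared across treatments. AGS is 1 established line, so the replicates describe its response and not that of other gastric tumours.

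PI103 inhibits phosphoinositide 3-kinases and mTOR, the kinases that pass growth-factor and nutrient signals to AKT, protein synthesis and lipid synthesis. Oxozeaenol is a resorcylic acid lactone that inhibits TAK1, a kinase that links cytokine receptors to NF-kB and to the JNK and p38 kinases, and it can also bind other kinases, among them MEK. Interferon-stimulated genes, several of which recur below, encode antiviral proteins and are switched on by transcription factors that bind the interferon-stimulated response element in promoters.

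The departure of a gene is the fitted log2 level in the mixture minus the mean of the fitted log2 levels under PI103 and under oxozeaenol. A positive value means a transcript more abundant than that mean. Of 13947 genes tested with edgeR's quasi-likelihood test, 555 (3.98%) departed at a Benjamini-Hochberg adjusted p under 0.05, of which 402 (2.88%) were higher and 153 (1.1%) were lower. The median size of these 555 departures was 0.47, against 0.11 over all genes tested, and 306 of them were under 0.5. The departure had the same sign in all 4 batches for 552 of the 555 (99.5%, against 41.4% of all genes tested). The calls were made from these same batches, so this agreement is not a separate check. With the batch as a block, the same 555 were called among 997 (7.15%), 685 higher (4.91%) and 312 lower (2.24%). The count fell to 232 without mixture replicate 1, to 258 without mixture replicate 3 and to 280 without mixture replicate 4. A set of 179 genes (1.28%), 134 higher (0.961%) and 45 lower (0.323%), was called in the fit over all libraries and in each of the 12 fits that left out a library. These are referred to below as held in all 12 fits.

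By fitted level alone, most called departures lay outside the span of the single agents. For 444 of the 555 called genes (80%) the fitted level in the mixture was above both single agents or below both, which was so for 42% of all genes tested. A large departure itself tends to put a gene outside the span, so the call favours this class. A stricter criterion was a called difference from each single agent in the same direction. It was met by 145 genes (1.04%), with 106 above both (0.76%) and 39 below both (0.28%). Of the 555 called genes, 140 (25.2%) met it in the direction of their departure. Each of those differences alone was common: 18.3% of genes differed between the mixture and PI103 (9.39% higher, 8.92% lower) and 14.9% between the mixture and oxozeaenol (7.59% higher, 7.28% lower). Against control, 55.6% of genes changed in the mixture (27.7% higher, 27.9% lower), 51.4% under PI103 (26.2% and 25.2%) and 51.9% under oxozeaenol (25.7% and 26.1%). The number of genes beyond both single agents was 56 without mixture replicate 1 and 79 without mixture replicate 3. It was 93 without oxozeaenol replicate 2, 85 without oxozeaenol replicate 3 and 256 with the batch block. The departure pointed away from the control for 452 called genes (81.4%, against 64% of tested genes), towards it for 33, and across it for 70. Among the called genes 396 (71.4%, against 51.1% of tested genes) lay nearer to oxozeaenol than to PI103.

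**Figure D1:**
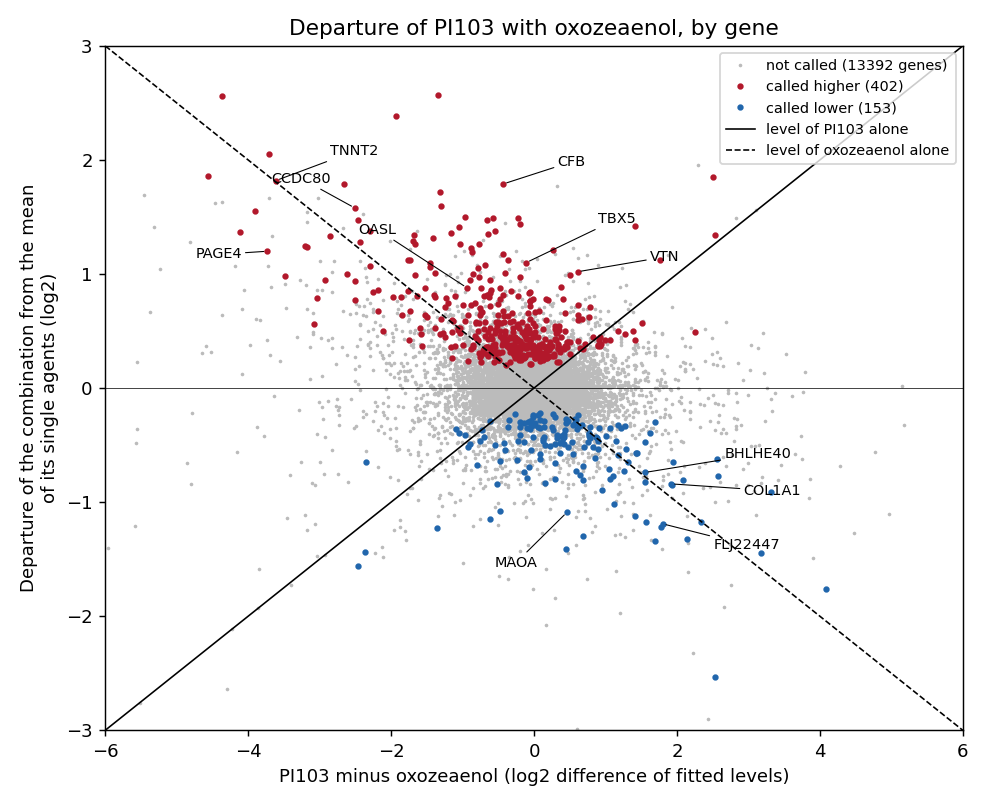
Each point is 1 of 13947 genes, with the fitted log2 difference between PI103 and oxozeaenol on the x axis and the departure of the mixture from their mean on the y axis; red and blue points are the 402 and 153 genes called higher and lower. A gene on the solid line has the level of PI103 alone and a gene on the dashed line that of oxozeaenol alone, so CFB and TBX5 lie above both lines, MAOA below both, and TNNT2 on the dashed line. There are 12 genes outside the plotted range.

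The whole profile was placed on the axis from oxozeaenol (0) to PI103 (1) within each batch, with the axis taken from the other 3 batches. The mixture sat at 0.417, 0.390, 0.414 and 0.426, a mean of 0.412 ± 0.0154 (SD, n = 4), on the oxozeaenol side of the midpoint in 4 of 4 batches. The exact two-sided sign-flip test against the midpoint cannot pass 0.05 with 4 batches, and it gave the smallest p that they allow. Among 1115 genes that differed between the single agents by at least 1 on the log2 scale, the median position was 0.417 with quartiles of 0.23 and 0.589. With genes averaging at least 5 CPM (read counts scaled to a common library size) the position was 0.467.

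Promoter sequences are shown first for 4 of the genes called higher, because the motif they share recurs among the interferon-stimulated genes that departed. The windows are the 250 bases before the RefSeq transcription start on GRCh38.p14, read 5′ to 3′ on the strand of the gene. Capitals mark the core of the interferon-stimulated response element, GAAA, any 2 bases and GAAA again, searched on both strands, so that a site on the opposite strand reads TTTC, any 2 bases and TTTC. The window of CFB is chr6:31945845-31946094 on the plus strand, BST2 at chr19:17405631-17405880 on the minus strand, ISG20 at chr15:88638766-88639015 on the plus strand and IFIT1 at chr10:89392373-89392622 on the plus strand.
CFB: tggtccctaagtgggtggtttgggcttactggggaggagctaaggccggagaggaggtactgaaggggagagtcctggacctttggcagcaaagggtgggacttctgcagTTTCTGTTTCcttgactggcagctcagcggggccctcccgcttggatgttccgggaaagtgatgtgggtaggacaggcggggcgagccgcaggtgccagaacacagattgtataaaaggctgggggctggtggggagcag
BST2: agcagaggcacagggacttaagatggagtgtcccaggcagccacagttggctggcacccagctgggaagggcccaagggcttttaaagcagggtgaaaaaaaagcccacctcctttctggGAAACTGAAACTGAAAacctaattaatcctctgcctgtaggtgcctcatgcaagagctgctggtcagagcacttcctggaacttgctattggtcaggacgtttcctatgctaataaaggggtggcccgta
ISG20: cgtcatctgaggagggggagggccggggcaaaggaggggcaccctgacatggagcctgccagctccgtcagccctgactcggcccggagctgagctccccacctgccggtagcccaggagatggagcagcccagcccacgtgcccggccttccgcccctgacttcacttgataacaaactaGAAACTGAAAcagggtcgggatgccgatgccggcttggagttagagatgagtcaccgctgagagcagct
IFIT1: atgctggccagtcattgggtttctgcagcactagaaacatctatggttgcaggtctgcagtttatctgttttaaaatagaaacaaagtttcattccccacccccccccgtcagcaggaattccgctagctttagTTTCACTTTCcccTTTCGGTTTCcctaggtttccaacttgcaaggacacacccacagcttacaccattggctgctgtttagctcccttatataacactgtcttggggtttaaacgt

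BST2 holds overlapping copies of the motif and IFIT1 holds a pair separated by a short gap. In windows that run from 250 bases before to 50 bases after a start, the motif was present in 2.88% of 15465 windows of tested genes, 4.26% of 469 windows of genes called higher and 2.6% of 192 windows of genes called lower. It was present in 60% of 45 windows of the interferon list described next and in 10 of 13 windows of its called members. Those 10 are among the 20 windows of genes called higher that held the motif. The AP-1 motif TGANTCA, searched in the same way, was in 10.9% of windows of genes called lower, 4.26% of windows of genes called higher and 5.52% of all windows. The TEAD motif GGAATG was in 9.38%, 15.8% and 11.9% of the same windows, and the CRE motif TGACGTCA in 0.521%, 1.28% and 2.69%. E-box, FOXO, TCF and sterol motifs were searched as well and are not reported here. These shares describe letters in the windows and were not tested.

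Interferon-stimulated genes formed the largest group of called members. Of 43 tested members of a 46-gene interferon response list, 14 were higher than the mean of the single agents and 0 were lower (32.6%, against 3.98% of all genes), with a median departure of 0.24 against -0.01 over all genes. The departure was above 0 for 36 of the 43, and 29 had a positive value in all 4 batches. Of the 14, 10 were held in all 12 fits, namely OAS2, OASL, BST2, ISG20, IFITM2, DDX60, IFIH1, IFI27, IFIT2 and IFIT3. The other 4, IFIT1, UBE2L6, DDX58 and IFI6, were called in 10, 11, 8 and 3 of the 12. IFIT1 was not called without mixture replicate 3 or 4 and UBE2L6 not without mixture replicate 1 (largest adjusted p of 0.0607 and 0.0732). Across those fits the list kept 11 to 14 called members, and the batch block called 16.

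OASL and OAS2, of the oligoadenylate synthetase family, had the smallest adjusted p of the list. OASL, an OAS-like protein that restrains viral replication, was at 20.7, 19.7, 18.6 and 21.2 CPM under PI103, 36.4, 43.0, 40.1 and 34.8 CPM under oxozeaenol, and 55.9, 47.7, 51.1 and 49.4 CPM in the mixture. Its 3 groups did not overlap, with the mixture highest. The departure was 0.88 ± 0.0928 (SE), adjusted p = 6.77e-07, and OASL also exceeded oxozeaenol alone by 0.40 (adjusted p = 0.014). OAS2, which makes the 2′-5′-linked oligoadenylates that activate RNase L, was at 0.707, 0.555, 0.823 and 0.792 CPM under PI103, 2.26, 1.92, 1.39 and 2.10 CPM under oxozeaenol and 3.00, 2.74, 3.24 and 2.82 CPM in the mixture. These groups did not overlap either, although the difference from oxozeaenol did not pass the test (0.61, adjusted p = 0.108). The departure of OAS2 was 1.32 ± 0.219 (adjusted p = 0.000447). OAS1 and XAF1, an interferon-induced partner of the apoptosis inhibitor XIAP, had values of -0.14 and -0.54 that did not pass.

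Effectors and RNA sensors of the response were called higher as well. IFIT2, an interferon-induced protein with tetratricopeptide repeats, was at 19.4 to 23.1 CPM under PI103, 21.0 to 26.6 CPM under oxozeaenol and 26.8 to 32.4 CPM in the mixture, so that the mixture lay just clear of both. Its departure was 0.43 (adjusted p = 0.000894), and IFIT3 and IFIT1 gave 0.43 and 0.44. ISG20, an exonuclease that degrades viral RNA, rose to 5.79, 5.13, 6.42 and 5.59 CPM in the mixture from 2.72 to 3.09 CPM under PI103 and 3.24 to 4.49 CPM under oxozeaenol, a departure of 0.78 (adjusted p = 0.00151). BST2, or tetherin, which holds budding virions at the cell surface, departed by 1.06 (adjusted p = 0.00176), but its mixture libraries at 1.37 to 1.93 CPM overlapped oxozeaenol at 1.15 to 1.57 CPM. The cytosolic double-stranded RNA sensors IFIH1 (MDA5) and DDX58 (RIG-I) departed by 0.50 and 0.30, with DDX58 not called without mixture replicate 1 or 3 or without PI103 replicate 2 or 4 (values from 0.26 to 0.36). Several factors that drive the response stayed near the mean of the single agents, with 0.06 for STAT2, 0.06 for IRF9 and -0.13 for IRF7, none of them called.

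**Figure D2:**
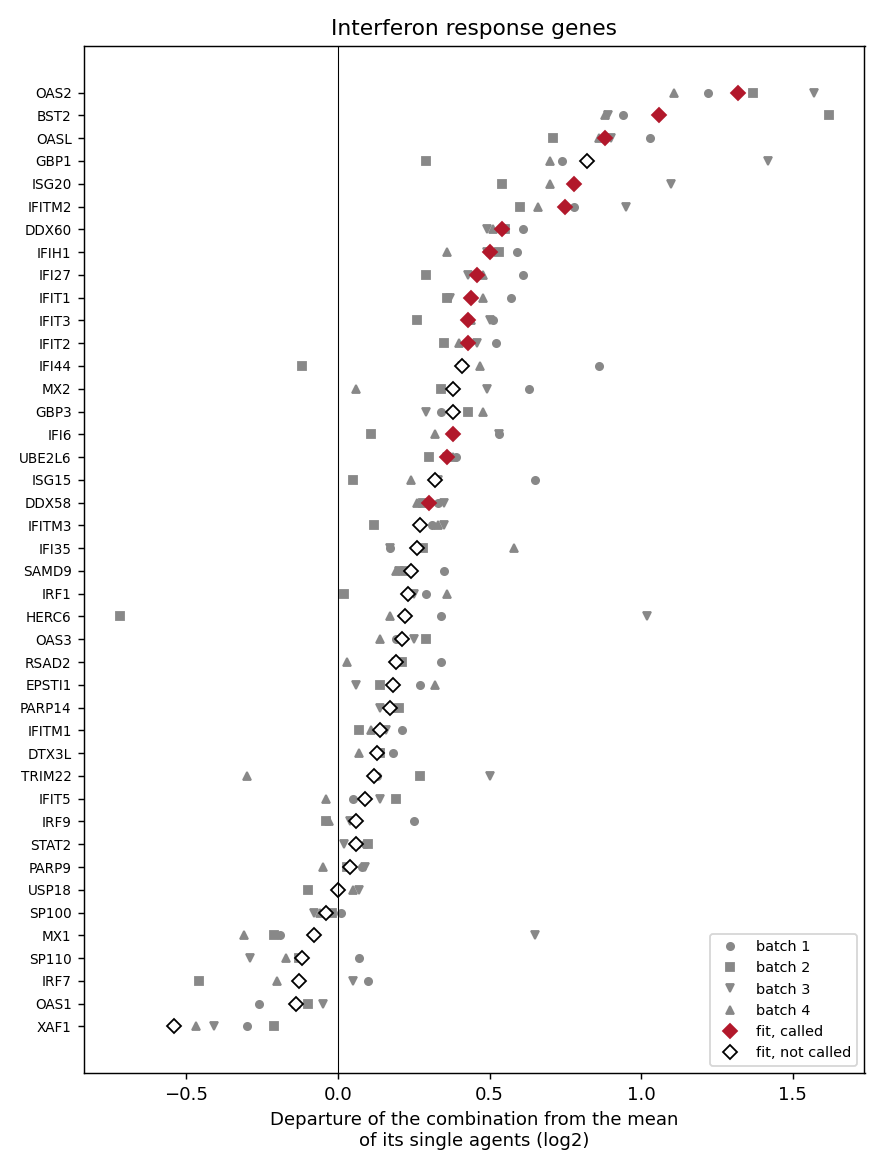
Departure of the mixture from the mean of its single agents (log2, x axis) for 42 of the 43 tested interferon response genes; grey symbols are the 4 batches and diamonds the fit over all libraries, filled where called. The 14 called genes all lie to the right of 0, and 7 of the 43 members have a fitted departure at or below 0, from USP18 down to XAF1 at -0.54.

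In the complement and acute phase list 4 of 17 tested members were higher (against 2.88% of all genes) and 0 lower (against 1.1%), with a median of 0.37 and 16 of 17 above 0, where all genes had a median of -0.01 and 48.5% above 0. In the antigen presentation list 2 of 21 were higher and 0 lower, against the same 2.88% and 1.1%, with a median of 0.24 and 19 of 21 above 0. Leaving out libraries changed these counts to between 2 and 4 and to between 0 and 3, and the lowest of each came without mixture replicate 1. CFB, the serine protease of the alternative complement pathway, was at 0.356, 0.279, 0.489 and 0.341 CPM in control, 3.00, 1.82, 1.85 and 2.10 CPM under PI103, 2.87, 2.72, 3.21 and 3.05 CPM under oxozeaenol and 11.2, 7.46, 9.22 and 7.40 CPM in the mixture. Every mixture library was above every single-agent library. CFB exceeded PI103 by 2.01 (adjusted p = 1.49e-06) and oxozeaenol by 1.58 (adjusted p = 8.67e-05). The gene lies at chr6:31945650-31952084 in GENCODE 29 (GRCh38), and 45.5% of its exon bases are shared on the same strand with C2 and a readthrough gene, so reads of these genes may be split. C2, itself a complement protease, gave 0.32 and was not called.

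CFI, which encodes complement factor I, departed by 2.56 ± 0.415 (adjusted p = 0.000352) but stayed low, at 0.40, 0.735, 0.445 and 0.398 CPM in the mixture, 0.609, 0.301, 0.0851 and 0.476 CPM under oxozeaenol and 0 to 0.0347 CPM under PI103. Mixture and oxozeaenol libraries overlapped, and against the arithmetic mean of the single agents the departure was 1.36. SERPING1, the C1 inhibitor, was at 2.20 to 3.42 CPM in the mixture, 1.27 to 2.20 CPM under PI103 and 0.568 to 1.41 CPM under oxozeaenol. Its departure of 0.99 (adjusted p = 0.0171) was no longer called without mixture replicate 1 (adjusted p = 0.134). C3, the central component of the pathway, gave -0.69 and was not called. HLA-B, a class I antigen-presenting molecule, departed by 0.45 (adjusted p = 0.0212), with 0.40 without mixture replicate 1 (adjusted p = 0.145) and 0.42 without mixture replicate 3 (adjusted p = 0.0944).

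APOL1, APOL3 and APOL6, of the apolipoprotein L family, were higher, while APOL2 gave 0.09 and did not pass. APOL1, a trypanolytic serum protein, was at 2.26 to 3.27 CPM in control, 14.5, 11.8, 12.8 and 10.3 CPM under PI103, 10.9, 8.10, 9.71 and 9.30 CPM under oxozeaenol, and 23.6, 17.0, 23.1 and 16.5 CPM in the mixture. The mixture was above each single agent in all libraries, by 0.70 (adjusted p = 0.00138) and by 1.08 (adjusted p = 3.11e-05). APOL6 and APOL3 departed by 1.12 and 1.44, and all 3 genes were held in all 12 fits. For APOL6 the mixture, at 4.15 to 5.31 CPM, overlapped oxozeaenol at 3.21 to 4.39 CPM, and that difference did not pass (0.24, adjusted p = 0.426). The wider list of apolipoproteins and lipid export genes had 4 of 20 called higher (against 2.88% of all genes) and 0 lower, with a median of 0.08, the remaining call being APOD at 0.53, which was called in 4 of the 12 fits. APOA1 and APOC3, parts of circulating lipoproteins, gave -0.42 and -0.37 and did not pass.

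Several genes held in all 12 fits belonged to no interferon or complement list and stood above both single agents. RARRES3, a retinoid-inducible phospholipase and growth suppressor, was at 3.37, 3.40, 3.65 and 4.22 CPM under PI103, 6.02, 7.73, 6.33 and 6.60 CPM under oxozeaenol and 12.3, 9.48, 11.2 and 12 CPM in the mixture, a departure of 1.19 ± 0.126 (adjusted p = 6.77e-07). GAA, the lysosomal acid alpha-glucosidase, was at 33.6 to 36.4 CPM under PI103, 32.1 to 38.6 CPM under oxozeaenol and 57.7, 49.9, 56.9 and 57.0 CPM in the mixture, a departure of 0.67 (adjusted p = 1.29e-05). The single agents were alike for GAA and the mixture was separate from both. TUBA1A, an alpha-tubulin, exceeded PI103 by 0.79 and oxozeaenol by 0.77 (adjusted p = 0.000447 and 0.00115), with 28.9 to 43.3 CPM in the mixture against 18.3 to 24.0 and 18.4 to 25.1 CPM. FRAS1, an extracellular matrix protein of epithelial basement membranes, and PPM1H, a protein phosphatase, departed by 1.00 and 0.95.

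MET and TBX5 fell under each single agent, while in the mixture MET rose and TBX5 did not pass the test against control. MET, the receptor tyrosine kinase for hepatocyte growth factor, was at 115, 109, 126 and 108 CPM in control, 91.3, 83.7, 86.3 and 77.5 CPM under PI103, 106, 88.5, 72.7 and 82.9 CPM under oxozeaenol and 168, 150, 149 and 148 CPM in the mixture. Each single agent lowered MET (log2 changes of -0.43 and -0.38, adjusted p = 0.00866 and 0.0187) and the mixture raised it above control (0.43, adjusted p = 0.00852). Its departure was 0.84 ± 0.113 (adjusted p = 3.23e-05). TBX5, a T-box transcription factor, fell from 10.4 to 11.6 CPM in control to 2.91 to 4.44 CPM under PI103 and 3.75 to 4.40 CPM under oxozeaenol. In the mixture it was at 8.61, 7.87, 7.53 and 9.24 CPM, below every control library and above every single-agent library, and its difference from control did not pass (-0.41, adjusted p = 0.0561). The departure of TBX5 was 1.1 (adjusted p = 6.11e-05). SARM1, an NAD-cleaving enzyme known from axon degeneration, and VTN, the adhesive serum protein vitronectin, departed by 1.18 and 1.02. VTN lies within the span of SARM1 on the opposite strand of chromosome 17, with 0% of its exon bases overlapping exons of the SARM1 strand. On its own strand 13.6% of VTN exon bases are shared with AC002094.3. Exons of AC002094.3, SEBOX and SLC46A1 on the opposite strand overlap 41.2% of SARM1 exon bases, and no strand setting of the counting is given in the sources used here.

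Another set of genes was raised by each single agent but not by the mixture. SLC9A2, a sodium-proton exchanger of the gut epithelium, was at 9.47 to 14.1 CPM in control, 16.4 to 18.8 CPM under PI103, 19.3 to 22.9 CPM under oxozeaenol, and 12.1, 12.6, 12.6 and 12.3 CPM in the mixture. The mixture lay inside the range of the controls and below every single-agent library, with a departure of -0.63 ± 0.0929 (adjusted p = 9.67e-05). EPN3, an endocytic adaptor, and GALNT5, which starts mucin-type O-glycosylation, departed by -0.69 and -0.54 (adjusted p = 0.00246 and 0.00128). Their differences from control were 0.63 and 0.39 under PI103, 0.70 and 0.42 under oxozeaenol, each called, and -0.02 and -0.14 in the mixture, not called.

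**Figure D3:**
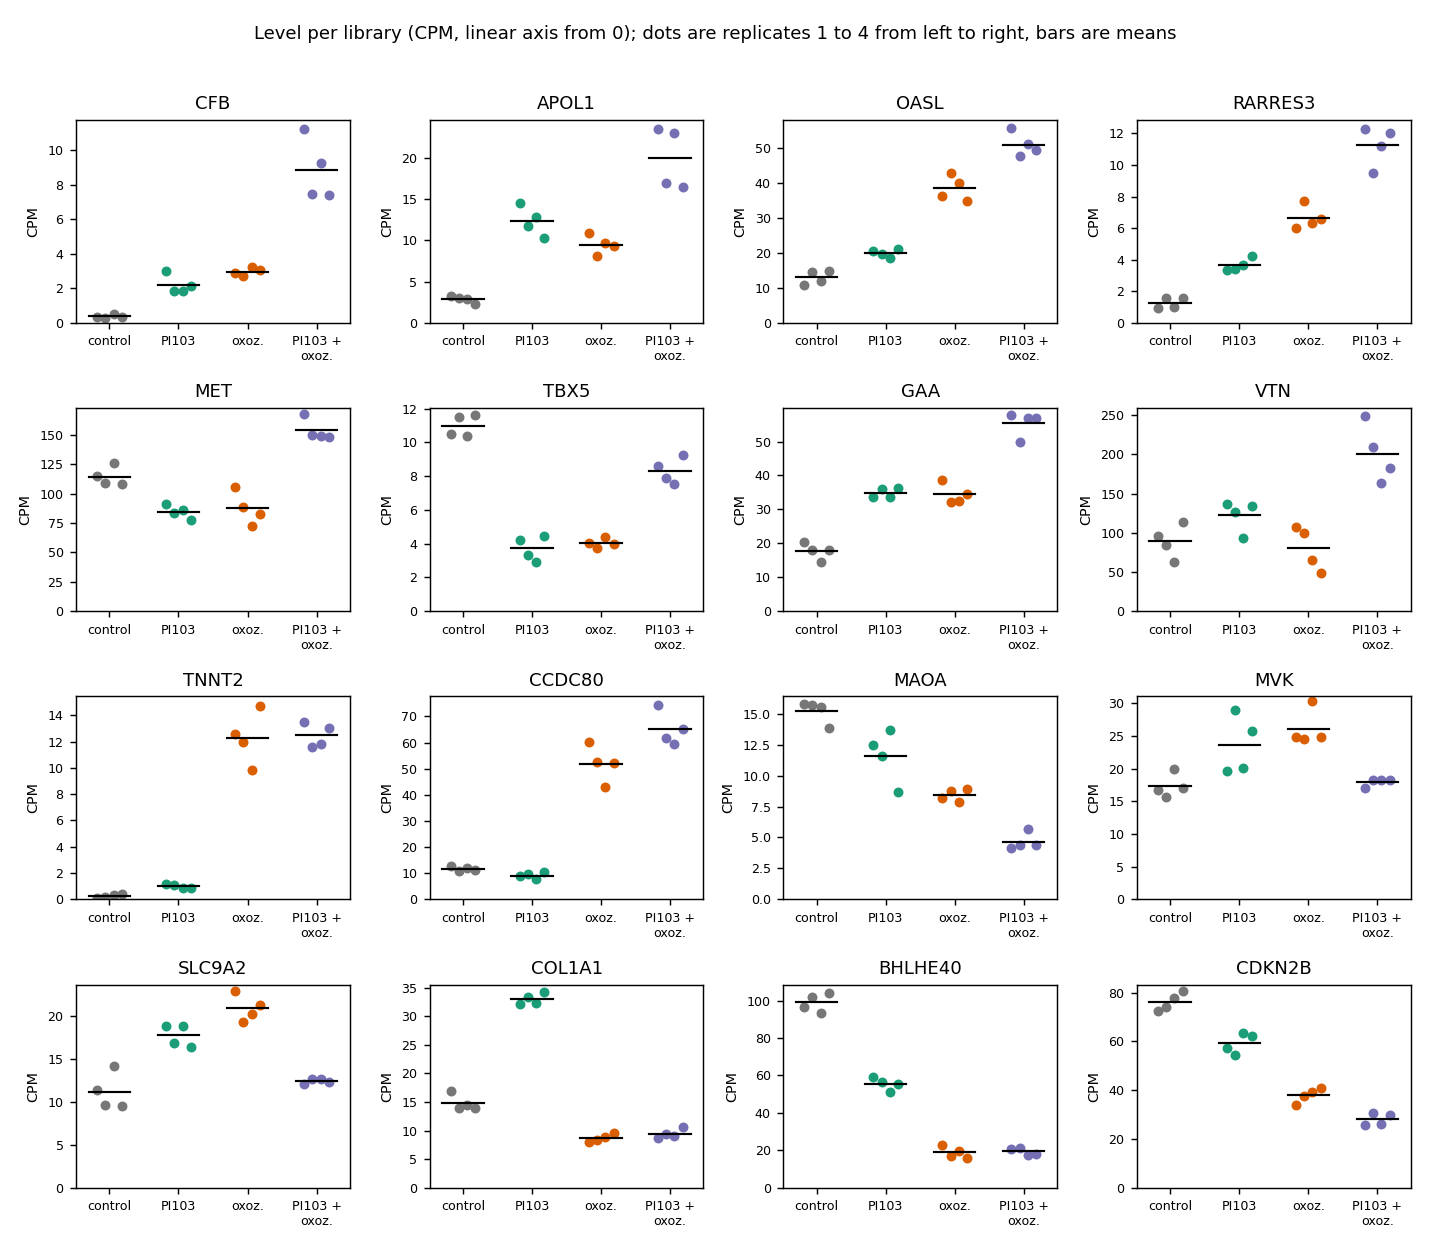
Levels in CPM for 16 genes in control, PI103, oxozeaenol and mixture libraries, with 1 dot for each replicate and a bar at the mean. In the panels for CFB, APOL1, RARRES3, MET and GAA all 4 mixture libraries stand above all single-agent libraries, in those for MAOA and SLC9A2 they stand below them, and in those for TNNT2, COL1A1 and BHLHE40 they lie beside the oxozeaenol libraries.

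Several genes of sterol synthesis were also lower than the mean of the single agents. In the list of cholesterol synthesis and uptake genes 4 of 25 were called lower (against 1.1% of all genes) and 0 higher, with a median departure of -0.17 and 4 of 25 above 0. Between 0 and 3 of them were called lower when a library was left out, with 0 without mixture replicate 1. The median difference of the list from control was 0.27 under PI103, 0.84 under oxozeaenol and 0.36 in the mixture. MVK, mevalonate kinase, was at 15.7 to 20 CPM in control, 19.6, 29, 20.1 and 25.8 CPM under PI103, 24.9, 24.6, 30.3 and 24.8 CPM under oxozeaenol, and 17.1, 18.3, 18.3 and 18.2 CPM in the mixture. Its mixture libraries were below all single-agent libraries and within the control range. The departure of MVK was -0.47 (adjusted p = 0.00854), with -0.44 without mixture replicate 1 (adjusted p = 0.0503). MVD, the decarboxylase of the mevalonate pathway, FDFT1, squalene synthase, and NSDHL, a sterol dehydrogenase, departed by -0.39, -0.37 and -0.32, and were called in 1, 3 and 2 of the 12 fits with a library left out. FDFT1 in the mixture was at the PI103 level (difference of 0, adjusted p = 0.989) and above control (0.31, adjusted p = 0.0267). MVD averaged 40.5 CPM in the mixture, near 36.9 CPM under PI103 and below 76.3 CPM under oxozeaenol. NSDHL averaged 32.7 CPM in the mixture, below 40.8 CPM under PI103 and 40.9 CPM under oxozeaenol. SQLE, squalene epoxidase, gave 0.05 and did not pass.

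COL1A1 and both type IV collagen chains were lower than the mean of the single agents and overlapped oxozeaenol, while COL3A1 was higher. COL1A1, a chain of type I collagen, was at 32.1, 33.3, 32.3 and 34.2 CPM under PI103, 7.93, 8.35, 8.85 and 9.63 CPM under oxozeaenol and 8.78, 9.35, 9 and 10.7 CPM in the mixture, with 13.9 to 17.0 CPM in control. PI103 libraries were the highest and the mixture overlapped oxozeaenol. The departure was -0.84 ± 0.0808 (adjusted p = 1.56e-07). COL4A1 and COL4A2, the type IV collagen chains of basement membranes, which face each other on chromosome 13, departed by -0.85 and -1.17. ITGA5, the alpha chain of the fibronectin receptor, was at 21.2 to 26.2 CPM in the mixture, below 28.5 to 32.9 CPM under PI103 and 30.9 to 40.2 CPM under oxozeaenol, a departure of -0.46 (adjusted p = 0.00669). In all, 5 of 24 tested mesenchymal and matrix genes were lower (against 1.1% of all genes) and 2 higher (LAMA5 and ITGB8, against 2.88%), with a median of -0.06. The 4 genes given first were held in all 12 fits, while ITGB6, LAMA5 and ITGB8 were called in 2, 9 and 6. COL3A1, the chain of type III collagen, was barely detected, at 0.0173 to 0.138 CPM under PI103, 0.087 to 0.176 CPM under oxozeaenol and 0.234 to 0.309 CPM in the mixture. Its departure was 1.47 (adjusted p = 0.0304), called in 6 of the 12 fits. COL1A1 and COL3A1 are also among 6 fibroblast markers, of which 4 were tested, with 1 called higher, 1 lower and a median of 0.78, LUM and PDGFRB giving 1.24 and 0.32 and not passing. The summed level of these markers, nearly all of it COL1A1, was 32.3 to 34.4 CPM under PI103, 8.18 to 10.0 CPM under oxozeaenol and 9.22 to 11.2 CPM in the mixture, and the part of other cells in these values was not tested.

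MAOA, the mitochondrial monoamine oxidase that degrades serotonin and noradrenaline, had 1 of the largest falls among well-expressed genes. It was at 13.8 to 15.8 CPM in control, 12.5, 11.6, 13.7 and 8.67 CPM under PI103, 8.16, 8.76, 7.89 and 8.89 CPM under oxozeaenol and 4.15, 4.39, 5.66 and 4.39 CPM in the mixture. The mixture was below every control, PI103 and oxozeaenol library. MAOA differed from PI103 by -1.32 and from oxozeaenol by -0.86 (adjusted p = 7.21e-07 and 0.000535). MAOB, which encodes the related enzyme and was added after its values were seen, was at 1.87 to 3.21 CPM under PI103, 0.766 to 1.15 CPM under oxozeaenol and 0.303 to 1.09 CPM in the mixture. The departure of MAOB was -1.12 (adjusted p = 0.00608), although mixture and oxozeaenol overlapped.

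For TNNT2, CCDC80, BHLHE40, VSNL1, FSCN1 and ABHD6 the difference between the mixture and oxozeaenol did not pass the test. TNNT2, cardiac troponin T, was at 1.2, 1.08, 0.84 and 0.905 CPM under PI103, 12.6, 12, 9.82 and 14.7 CPM under oxozeaenol and 13.5, 11.6, 11.8 and 13.0 CPM in the mixture. Its difference from oxozeaenol was 0.02 (adjusted p = 0.962), so the departure of 1.82 measures a distance from the midpoint of a wide log2 gap, and it was 0.91 against the arithmetic mean of the single agents. CCDC80, a secreted matrix-associated protein, was at 7.63 to 10.4 CPM under PI103, 43.0 to 60.1 CPM under oxozeaenol and 59.5 to 74.3 CPM in the mixture, a departure of 1.58 ± 0.104 (adjusted p = 2.63e-10). BHLHE40, a circadian and hypoxia-responsive repressor, was at 51.4 to 59.4 CPM under PI103, 16.1 to 23.1 CPM under oxozeaenol and 17.5 to 21.5 CPM in the mixture, from 93.5 to 104 CPM in control. VSNL1, a neuronal calcium sensor, FSCN1, an actin-bundling protein, and ABHD6, a monoacylglycerol hydrolase, behaved alike with departures of 1.01, -0.81 and -0.71 and differences from oxozeaenol that did not pass (adjusted p = 0.0698, 0.321 and 0.128). ABCB1, the P-glycoprotein drug pump, lay below oxozeaenol instead (-1.84, adjusted p = 0.000916). It had 0 counts in all 4 PI103 libraries and 0.409 to 0.735 CPM in the mixture against 1.14 to 3.18 CPM under oxozeaenol, and its sign turned from positive on the log2 scale (3.12) to negative (-0.83) against the arithmetic mean.

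Of the DNA replication and E2F target list 1 of 40 members was called higher (2.5%, against 2.88% of all genes), namely E2F2, a transcription factor of this programme (0.43, adjusted p = 0.0227). The departures of all 40 were above 0 (48.5% over all genes), with a median of 0.23 against -0.01. E2F2 was not called without mixture replicate 1, 3 or 4 (adjusted p = 0.0816, 0.116 and 0.1). With the batch block 12 of the 40 were called higher and 0 lower, against 4.91% and 2.24% of all genes with that block. DESeq2, which called 559 of 13947 genes higher and 241 lower, called 6 of the 40 higher and 0 lower. At an unadjusted p under 0.05 by edgeR 19 were higher and 0 lower. The share of all genes at that unadjusted threshold is not given, here or for the lists below. These unadjusted counts therefore have no background to be read against. CCNE1, the cyclin that drives entry into S phase, was at 86.5 to 97.9 CPM in the mixture, 74.4 to 87.9 CPM under oxozeaenol and 57.0 to 68.3 CPM under PI103, a departure of 0.38 (adjusted p = 0.00175). CDKN2B, the p15 inhibitor of CDK4 and CDK6, was lower, at 25.6, 30.6, 26.2 and 30 CPM in the mixture against 54.3 to 63.5 CPM under PI103 and 34.0 to 40.8 CPM under oxozeaenol, below every single-agent library (-0.76, adjusted p = 0.000133). Of 44 mitosis genes 0 were called by edgeR, the block or DESeq2 (1 lower at an unadjusted p under 0.05), with a median of -0.11.

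Most readouts of the inhibited pathways were not called, which was so for most genes, since 3.98% of all genes tested were called. DUSP6, the ERK phosphatase induced by ERK signalling, was at 44.5 to 57.7 CPM under PI103, 12.8 to 33.4 CPM under oxozeaenol and 30.4 to 40.3 CPM in the mixture, and gave 0.07 (adjusted p = 0.926). The NF-kB inhibitor NFKBIA gave -0.02 (adjusted p = 0.941) with 37.9 to 41.8 CPM in the mixture, and the leucine transporter SLC7A5 gave -0.01 (adjusted p = 0.98). Of 39 tested inhibited kinases and partners 1 was called (2.56%, near the share of all genes), PIK3R1, the p85 alpha regulatory subunit of PI3K. Its departure was 0.31 (adjusted p = 0.0218), and it was not called without mixture replicate 2, 3 or 4 (adjusted p = 0.0689, 0.0783 and 0.0743). The immediate-early factor EGR1 gave -0.38, the chemokine IL8 -0.57, the PI3K inhibitor protein PIK3IP1 -0.9, the growth regulator MYC 0.25 and the sterol enzyme HMGCS1 -0.22, and none of these passed. The stress-response genes TRIB3 and INHBE, at -1.59 and 0.07, did not pass either. INSR, the insulin receptor, was called at 0.34 (adjusted p = 0.0393) but in 3 of the 12 fits with a library left out. Also called was FOS, an immediate-early transcription factor, at 9.27 to 11.7 CPM in the mixture against 4.9 to 9.95 CPM under PI103 and 4.3 to 6.4 CPM under oxozeaenol. Its departure of 0.78 (adjusted p = 0.0219) was 0.74 without mixture replicate 1 and 0.72 without replicate 4 (adjusted p = 0.097 and 0.089). The cytosolic aminoacyl-tRNA synthetases, which charge tRNAs with amino acids, had 0 of 20 called by edgeR (11 lower at an unadjusted p under 0.05), 5 lower with the batch block and 2 lower with DESeq2, with a median of -0.20 and 1 of 20 above 0. Without mixture replicate 2 there were 9 called lower, and without oxozeaenol replicate 4 there were 4. Over all genes tested, those fits called 156 of 14079 and 237 of 14081 lower. The block called 2.24% of all genes lower and DESeq2 241 of 13947. Targets of ATF4, the transcription factor of the amino acid stress response, had 0 of 19 called by edgeR (2 lower unadjusted), 1 lower with the block and 0 with DESeq2, with a median of -0.34. Without mixture replicate 2 there were 6 called lower and without oxozeaenol replicate 4 there was 1, and the median ran from -0.66 to -0.16 over the fits with a library left out. By edgeR, the block and DESeq2 alike, 0 of 73 cytosolic ribosomal protein genes (0 unadjusted) and 0 of 44 ribosome biogenesis genes (2 lower unadjusted) were called.

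Eph receptors, which sort cells at tissue boundaries, were called in both directions, with 3 of 15 members of the Eph and ephrin list higher (against 2.88% of all genes) and 2 lower (against 1.1%). Without mixture replicate 1 the counts were 1 and 1, with EPHA10 (0.66), EFNA2 (0.37) and EFNA3 (-0.5) not called. EPHB2 was at 11.1 to 13.3 CPM under PI103, 22.2 to 27.5 CPM under oxozeaenol and 22.8 to 25.4 CPM in the mixture, a departure of 0.48 (adjusted p = 0.000353). EPHA4 was at 75.5 to 86.7 CPM under PI103, 26.1 to 33.4 CPM under oxozeaenol and 30.9 to 34.2 CPM in the mixture, a departure of -0.57 (adjusted p = 0.00048). For both receptors the mixture overlapped oxozeaenol, and both were held in all 12 fits.

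**Figure D4:**
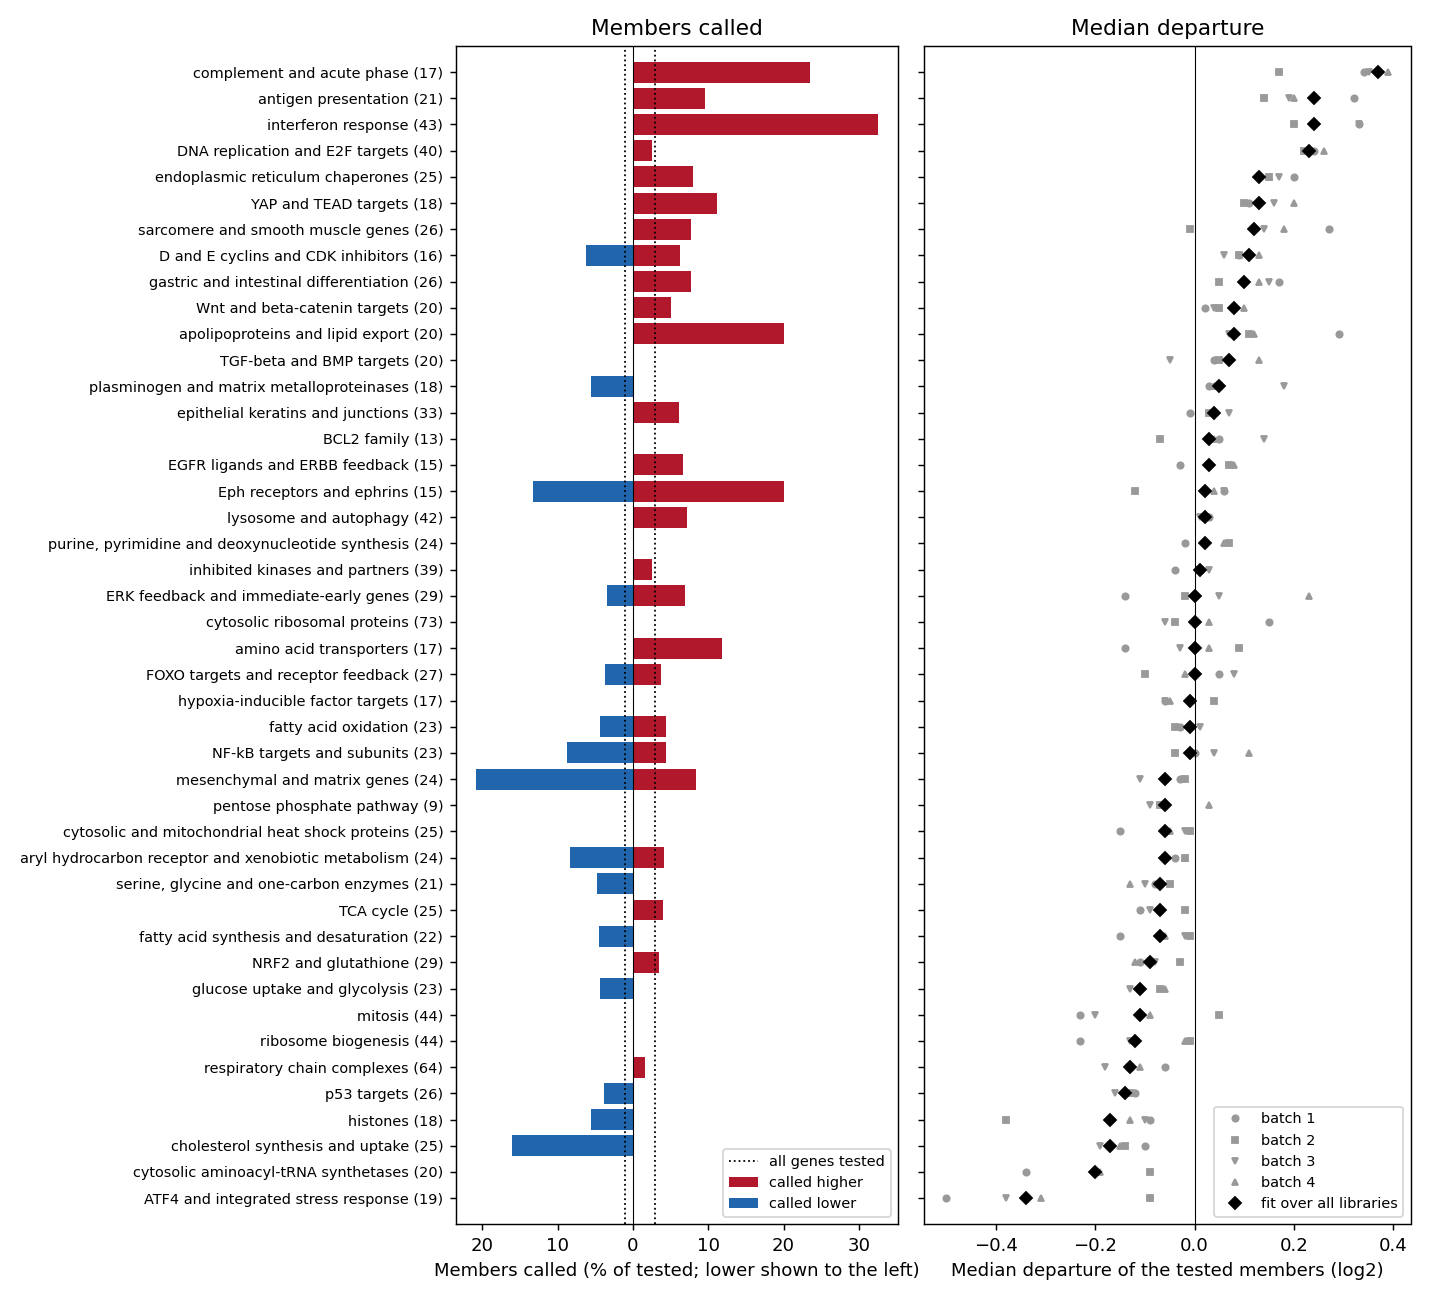
Left, the share of tested members of each gene list called higher (right of 0) or lower (left of 0) with dotted lines at 2.88% and 1.1% of all genes tested; right, the median departure of each list in the fit (diamonds) and in each of the 4 batches (grey). The interferon list has the largest share called higher, the matrix and cholesterol lists the largest shares called lower, and the number of tested members is in brackets.

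PI103 was also mixed with the MEK inhibitor PD0325901, and the departures of the 2 mixtures share the PI103 libraries, so their values are given side by side only. With PD0325901, 3065 genes departed (22%), 1512 higher (10.8%) and 1553 lower (11.1%). The interferon list had 38 of 43 called higher with a median of 0.69 there, against 14 and 0.24 with oxozeaenol. The replication list had 11 of 40 called lower and 0 higher with a median of -0.24, against 1 higher and 0.23. The complement list had 8 of 17 called higher and 0 lower there, against 4 and 0. The cholesterol list had 9 of 25 called lower and 1 higher, against 4 and 0. With PD0325901 first in each pair, CFB gave 2.38 and 1.79, TBX5 1.19 and 1.1, and MAOA -0.97 and -1.09. OASL gave 0.95 and 0.88, RARRES3 1.17 and 1.19, GAA 0.59 and 0.67, SLC9A2 -0.58 and -0.63, and MVK -0.53 and -0.47. All of these genes were called in both mixtures. COL1A1 gave -0.19 and -0.84, MET 0.21 and 0.84, and CDKN2B 0.22 and -0.76. The PD0325901 values of COL1A1, MET and CDKN2B did not pass the test, and whether the mixtures differ for these genes was not tested.

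Depth ranged from 38.1 to 77.7 M gene counts over the 12 libraries. The epithelial markers were all present, with 5070 to 7150 CPM in sum. Endothelial markers summed to at most 0.452 CPM with CLDN5 at 0, and the 2 leukocyte markers that passed the filter, LYZ and CD68, left a list sum of 188 to 365 CPM. Called genes outside every list numbered 475 of 555.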

How the data were processed

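RNA of 24 samples was sequenced with a stranded mRNA kit from 0.8 µg of total RNA, per the labels' protocols. The authors deposited 1 table of whole-number read counts for 23368 gene symbols, made on GRCh38 per the submitters' processing notes. The aligner, the counting program and its strand setting are not given in the sources used here. Rows that name no gene (12.6 to 16.5% of counts in the 12 libraries) were left out.

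From these counts, 13947 genes passed edgeR's filterByExpr. TMM factors, robust dispersions and a quasi-likelihood model with 1 coefficient per treatment were fitted over all 24 libraries (edgeR 4.0.16, limma 3.58.1, R 4.3.3), so that all treatments share an estimate of the spread. Contrasts were tested two-sided with Benjamini-Hochberg adjustment over all genes tested, called under 0.05. The departure is the mixture minus 0.5 times each single agent on the log2 scale. Levels are TMM-scaled CPM, and the SE is the size of the departure over the square root of its F statistic. For the position, log2 CPM used a prior count of 2. The scripts were tested on simulated data.

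Genes were named by rule: the 12 largest rises and 12 largest falls among called genes that averaged 5 CPM or more and kept their sign across the 4 batches, the 5 farthest beyond both single agents in each direction, the 2 called members with the smallest adjusted p in each of 45 gene lists, and 14 fixed readouts. Other called members of the lists described are given beside them, and uncalled members were named after their values were seen. The comparison and the lists were chosen with earlier results of these data known. The mitochondrially encoded genes list had no gene in the table.

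The labels' batch equals the replicate number, so the numbers pair the libraries. Deviations from group means correlated at a mean of 0.191 in 12 same-batch pairs (0.0369 to 0.547) and -0.0623 in 36 other pairs. No 2 libraries of a group agreed within counting noise. Promoter windows came from RefSeq (GRCh38.p14) and matched 15803 of 23368 symbols, and gene positions from GENCODE 29 matched 21616. Alternatives were other size factors, filters, DESeq2 1.42.0, the 12 libraries alone, the batch block, a minimum change, an arithmetic reference and each library left out. Some genes of the lists are not reported here by name.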

Additional observations from a re-analysis of the deposited data

Results flagged for a closer look

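A library standing apart from the other 3 of its treatment was found in 21 of 255 groups of 4 values, by the gap between the extreme library and its neighbour relative to the range of the group. Chance gives about 1 in 20 such groups. Of the 21, 10 were in the mixture, 5 under PI103 and 6 under oxozeaenol.

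In the mixture, replicate 2 was high for CFI (0.735 CPM against 0.398 to 0.445), INHBE (2.32 against 0.0516 to 0.142), TRIB3 (0.284 against 0.0178 to 0.0568) and SLC7A5 (388 against 267 to 277), and low for GAA (49.9 against 56.9 to 57.7). INHBE, TRIB3 and SLC7A5, genes of the amino acid and stress response, were not called as departures. Mixture replicate 1 was high for MET (168 against 148 to 150) and low for MVK (17.1 against 18.2 to 18.3). Mixture replicate 3 was high for MAOA (5.66 against 4.15 to 4.39), and replicate 4 was high for HIST1H2AC (1.38 against 0.818 to 0.902) and TNFAIP2 (36.7 against 31.5 to 32.4).

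Under PI103, replicate 1 was high for CDH17 (123 CPM against 107 to 109) and CTGF (149 against 111 to 113), replicate 2 for EPN3 (9.52 against 7.61 to 7.79) and replicate 4 for PAGE4 (22.2 against 11.8 to 13.5), while INHBE was low in replicate 4 (0.0162 against 0.0461 to 0.052). Under oxozeaenol, replicate 1 was high for CCNE1 (87.9 against 74.4 to 75.5) and PDIA4 (1010 against 885 to 905) and low for ACSL1 (63.3 against 68.1 to 68.8). Oxozeaenol replicate 3 was high for MVK (30.3 against 24.6 to 24.9), and replicate 4 for E2F2 (16.7 against 13.1 to 13.4) and TTN (17.4 against 6.67 to 8.25).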

How the results depend on the processing

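The count of departing genes was 546 with RLE size factors, 516 with total counts, 800 with DESeq2, 438 with no filter and 429 at 5 CPM or more, and moved by over 1.5 times with only the 12 libraries (887), the replicate block (997), both together (1980, chosen after seeing the data) and a minimum change of 1 (5). Genes beyond both single agents numbered 224, 256, 522 and 0 under those last 4. Leaving out 1 library gave 232 to 781 and 56 to 175. The position was 0.467 at 5 CPM or more, and 0.404 to 0.419 without a batch. Of 1470 alternative tests of the 74 called named genes, 192 were no longer called and 0 reversed, and 43 genes kept the call whichever library was left out. With the arithmetic mean as reference 553 of 555 kept their sign, and ABCB1 turned to -0.83.

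Only uncalled readouts changed sign otherwise, and the cause was not tested. With 1 library left out, DUSP6 ran from -0.02 to 0.2, NFKBIA from -0.04 to 0, SLC7A5 from -0.16 to 0.05 and INHBE from -2.87 to 0.74. With the arithmetic reference DUSP6 gave -0.03 and INHBE -2.69, and INHBE, near 0 counts under PI103, gave -0.24 with the 12 libraries and replicate block.

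Size factors shifted the median of all genes by at most 0.009. Low transcripts such as CFI, OAS2 and BST2 rest on few counts. Because each agent was at 50% in the mixture, dose and combination cannot be told apart.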

Other observations

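The genes in these paragraphs were singled out after their values were seen and describe called genes that lie outside the lists above. Chemokines that draw T cells, all induced by interferon, were higher in the mixture than the mean of the single agents. CXCL10 was at 0.484 to 0.843 CPM in control, 0.295 to 0.771 CPM under PI103, 3.00 to 3.55 CPM under oxozeaenol and 3.91, 4.27, 4.23 and 5.55 CPM in the mixture, a departure of 1.79 (adjusted p = 8.78e-08). The difference of CXCL10 from oxozeaenol alone did not pass the test (0.46, adjusted p = 0.0942). CXCL9 and CXCL11 departed by 2.05 and 1.38 and lay at or near the oxozeaenol level (differences of 0.19 and 0.23, adjusted p = 0.664 and 0.574). CCL5 stood above both single agents, at 2.42 to 3.37 CPM against 0.789 to 1.03 CPM under PI103 and 1.06 to 1.67 CPM under oxozeaenol, a departure of 1.35 (adjusted p = 4.27e-06). All 4 chemokine genes were held in each of the 12 fits with a library left out, although CXCL9 rested on 2 to 4 counts in each PI103 library.

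Mucosal defence proteins included some of the largest values. REG1A, a secreted lectin of regenerating gut epithelium, was at 5.30, 3.94, 5.92 and 4.34 CPM in the mixture against 0.377 to 0.728 CPM under PI103 and 0.794 to 2.12 CPM under oxozeaenol, a departure of 2.57 (adjusted p = 1.46e-08). PI3, the elastase inhibitor elafin, was at 6.42 to 7.42 CPM against 1.54 to 1.97 and 2.67 to 4.07 CPM, a departure of 1.5 (adjusted p = 7e-08). DMBT1, a scavenger receptor that binds bacteria, gave the largest departure of all called genes (3.81), with 0 to 2 counts in each PI103 library and 1.97 to 2.86 CPM in the mixture, next to 1.62 to 2.19 CPM under oxozeaenol. Its fitted value depends on those near-zero counts.

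The lysosome and autophagy list had 3 of 42 members called higher (against 2.88% of all genes) and 0 lower, with a median of 0.02 and 22 of 42 above 0. Outside that list, GALC, the lysosomal galactosylceramidase mutated in Krabbe disease, was at 496, 463, 471 and 457 CPM in the mixture against 225 to 246 CPM under PI103 and 273 to 300 CPM under oxozeaenol, with 179 to 212 CPM in control. The groups were separate and the departure was 0.85 (adjusted p = 4.17e-07). The cysteine protease CTSO departed by 0.81 (adjusted p = 0.00129), and both were held in all 12 fits. Pregnancy-specific glycoproteins had 5 of 10 tested genes called higher (against 2.88% of all genes) and 0 lower, in a family picked for its values. PSG9, the one member held in all 12 fits, departed by 1.12 (adjusted p = 0.00244), and reads of these near-identical neighbours may be split between them.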
